A study of Homo sapiens with 6 samples.

Results

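The genes described here are 37 genes of the NRF2 pathway and of cellular redox defence, out of 23459 genes in the count table. They were chosen by function, with earlier results of these data known. They cover the regulators of NRF2, the glutathione and thioredoxin systems, enzymes that remove superoxide and peroxide, and the pentose phosphate pathway. Also included are detoxifying and conjugating enzymes, export pumps, and heme and iron handling. All 37 had a row in the table and 34 passed the filter on low counts. The transcriptomes came from MCF10A, a line of human breast epithelial cells that is not transformed, transfected with siRNA at 20 nM. The 3 siCtrl libraries received a non-targeting siRNA and the 3 siYAP/TAZ libraries received siRNA against YAP and TAZ, the coactivators of the Hippo pathway encoded by YAP1 and WWTR1. All cells were of 1 parental line, with no transgene named, and libraries were made from the 3′ ends of polyadenylated RNA.

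NRF2, encoded by NFE2L2, is a transcription factor that is held at low levels by KEAP1, an adaptor that delivers it to ubiquitin ligation and degradation. Oxidants and electrophiles modify KEAP1, NRF2 then accumulates, pairs with a small MAF protein such as MAFG and binds antioxidant response elements (AREs), while BACH1 competes for the same sites. This control acts largely on the protein, so that mRNA of NFE2L2 need not follow the activity of NRF2. Target genes of NRF2 supply glutathione, reduced thioredoxin and NADPH, detoxify quinones and other electrophiles, and store iron.

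The AREs are short promoter or enhancer sequences, and a few windows are shown because they differ in whether they hold the ARE core. RefSeq promoter windows (GRCh38.p14, from 250 bases before to 50 bases after a start site) existed for 28 of the 37 genes, in 42 windows. The 100 bases before the start are printed 5′ to 3′ along the gene. Capitals mark matches to TGACNNNGC on either strand that lie wholly before the start. SQSTM1 (chr5:179806293-179806392, plus strand, the first of 3 windows) and CAT (chr11:34438834-34438933, plus strand) are among the genes that stand out below and have no match in the stretch shown. GCLM (chr1:93909431-93909530, minus strand), GSTP1 (chr11:67583712-67583811, plus strand) and TXNRD1 (chr12:104215679-104215778, plus strand, 1 of 2 windows) are NRF2 target genes with a match. The genes were picked by hand, and for GCLM, GSTP1 and TXNRD1 a window with a match was taken. The display therefore does not compare genes that rose with genes that did not. FTH1 had no window, and sequence outside the windows, enhancers included, was not searched.
SQSTM1: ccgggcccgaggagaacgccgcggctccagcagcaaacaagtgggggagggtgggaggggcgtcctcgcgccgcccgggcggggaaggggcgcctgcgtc
CAT: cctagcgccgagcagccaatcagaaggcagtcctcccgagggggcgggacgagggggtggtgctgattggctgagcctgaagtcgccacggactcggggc
GCLM: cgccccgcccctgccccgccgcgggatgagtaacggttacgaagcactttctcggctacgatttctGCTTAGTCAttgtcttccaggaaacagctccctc
GSTP1: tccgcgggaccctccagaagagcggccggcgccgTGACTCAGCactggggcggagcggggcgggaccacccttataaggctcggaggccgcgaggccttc
TXNRD1: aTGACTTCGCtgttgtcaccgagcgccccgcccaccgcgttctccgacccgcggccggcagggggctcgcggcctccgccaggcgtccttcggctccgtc
The capitals begin at position -34 in GCLM, -66 in GSTP1 and -99 in TXNRD1, counted from the start site. In GSTP1 they overlap a match to the AP-1 motif TGANTCA, the site bound by JUN and FOS proteins. TXNRD1 has another ARE core match that begins at -8, on the minus strand of the motif search. It runs past the start and is left in lower case.

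Over all windows, the ARE core was found in 11 of 42 member windows (26.2%), belonging to 10 genes, and in 13.3% of the 35116 RefSeq windows. Those 10 genes were CBR1, EPHX1, GCLM, GSTO1, GSTP1, KEAP1, MGST1, PGD, PIR and TXNRD1. The AP-1 motif was found in 9.5% of the member windows (BACH1, GSTP1, OSGIN1 and PIR) against 7.7% of all windows. The TEAD motif GGAATG, bound by the DNA-binding partners of YAP and TAZ, was found in 9.5% (CBR1, PIR, SRXN1 and UGDH) against 14%. These are matches of letters on both strands, not measured binding.

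The labels disagreed for 2 of the 6 libraries. Groups were taken from the description, which is also the column name of the counts. Under it, siCtrl replicate 2 has a title and genotype entry for siYAP/TAZ, and siYAP/TAZ replicate 2 has a title and genotype entry for the control. The targeted mRNAs followed the description. YAP1 was at 189, 204 and 210 CPM (TMM-normalised counts in a library of common size) in siCtrl replicates 1, 2 and 3 and at 116.5, 118 and 112 CPM after siYAP/TAZ. Its change was -0.80 on the log2 scale (SE 0.12, edgeR adjusted p = 0.0138). WWTR1 was at 109, 109 and 102 CPM against 70.5, 67.1 and 59.8 CPM, and its change was -0.69 (SE 0.13, edgeR adjusted p = 0.0311). Neither gene overlapped between groups. With 1 library left out, the change of YAP1 was -0.84 to -0.77 and passed in 3 of 6 fits, with an adjusted p of 0.0988, 0.0606 and 0.112 without siCtrl replicate 3, siYAP/TAZ replicate 2 and siYAP/TAZ replicate 3. That of WWTR1 was -0.75 to -0.62 and passed only without siCtrl replicate 2 (adjusted p = 0.011), with 0.0602 to 0.176 without each other library. On the first principal component, however, siCtrl replicate 2 (7.15) lay beside the siYAP/TAZ libraries (9.77 to 33.7) and apart from siCtrl replicates 1 and 3 (-42.6 and -34.9). Counts of called genes are therefore given with and without them, and values of several members without 1 or both. Members that passed only in a blocked fit without both are named in the closing section.

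Library totals were 3175149 to 4317286 counts, and 3 counts, the limit that a count of 0 allows, were 0.695 to 0.945 CPM. This limit covers counting error only. All 6 basal and all 4 general epithelial markers passed the low-count filter. The summed basal markers were at 1637 to 2077 CPM in siCtrl and 1280 to 1486 CPM in siYAP/TAZ, with no overlap. Within that list TP63 went the other way, at 40.8 to 62.8 CPM against 61.4 to 85.3 CPM (adjusted p = 0.177, 0.0379 with the block). The basal markers KRT5 and LAMB3 and the epithelial marker EPCAM were lower with the block (edgeR adjusted p = 0.023, 0.00962 and 0.0364). None of these passed without it. Of 10 fibroblast, endothelial and blood markers, 2 passed the filter, PDGFRA at similar levels in both groups and PECAM1 at 4 to 6 counts in siCtrl and 14 to 29 in siYAP/TAZ. PECAM1 passed with the block only (edgeR adjusted p = 0.0245, 0.0785 without it). COL1A2 was at 0 in every library, and the list without PDGFRA summed to 5.17 to 10.18 CPM against 8.39 to 16.5 CPM. The part of these differences in the results was not tested. In bulk RNA, fewer cells that express a gene and less RNA per cell cannot be told apart.

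Of the 34 tested genes, 2 rose after YAP/TAZ depletion, FTH1 and SQSTM1, and 0 fell. This was 5.88% of the tested members, where 0.743% of the 12510 genes tested were higher and 1.22% were lower at an edgeR adjusted p under 0.05. With the replicate number as a block, 5 of 34 rose (14.7%), adding CAT, SOD2 and FTL, and 0 fell, where 4.66% of all genes were higher and 5.44% lower. Without both libraries with disagreeing labels, 7 of 34 rose (20.6%) and 0 fell, against 4.65% and 4.64% of all genes. Those 7 were FTH1, SQSTM1, CAT, SOD2, BLVRB, GCLC and EPHX1. When libraries were grouped by title, 0 of all 12510 genes passed in either direction, members included. At an unadjusted p under 0.05, edgeR then had 3 members higher and 0 lower, and 222 and 242 of all genes.

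The direction was up in 27 of the 34 members and down in 7, with a median log2 fold change of 0.18, where the median over all genes was -0.00093. Of all 12510 genes, 6240 were up and 6270 down. The groups did not overlap for 5 members that were higher (14.7%) and 1 that was lower (2.94%), against 11% and 11.1% of all genes. With each library left out in turn, the median ranged from 0.080 to 0.26. The low end was reached without siYAP/TAZ replicate 1, where 22 members were up and 12 down. The plot of fold changes by role gives each estimate with its unadjusted 95% interval. The intervals of 5 genes, SQSTM1, CAT, BLVRB, FTH1 and FTL, lay above 0 and those of the other tested members spanned it.

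**Figure D1:**
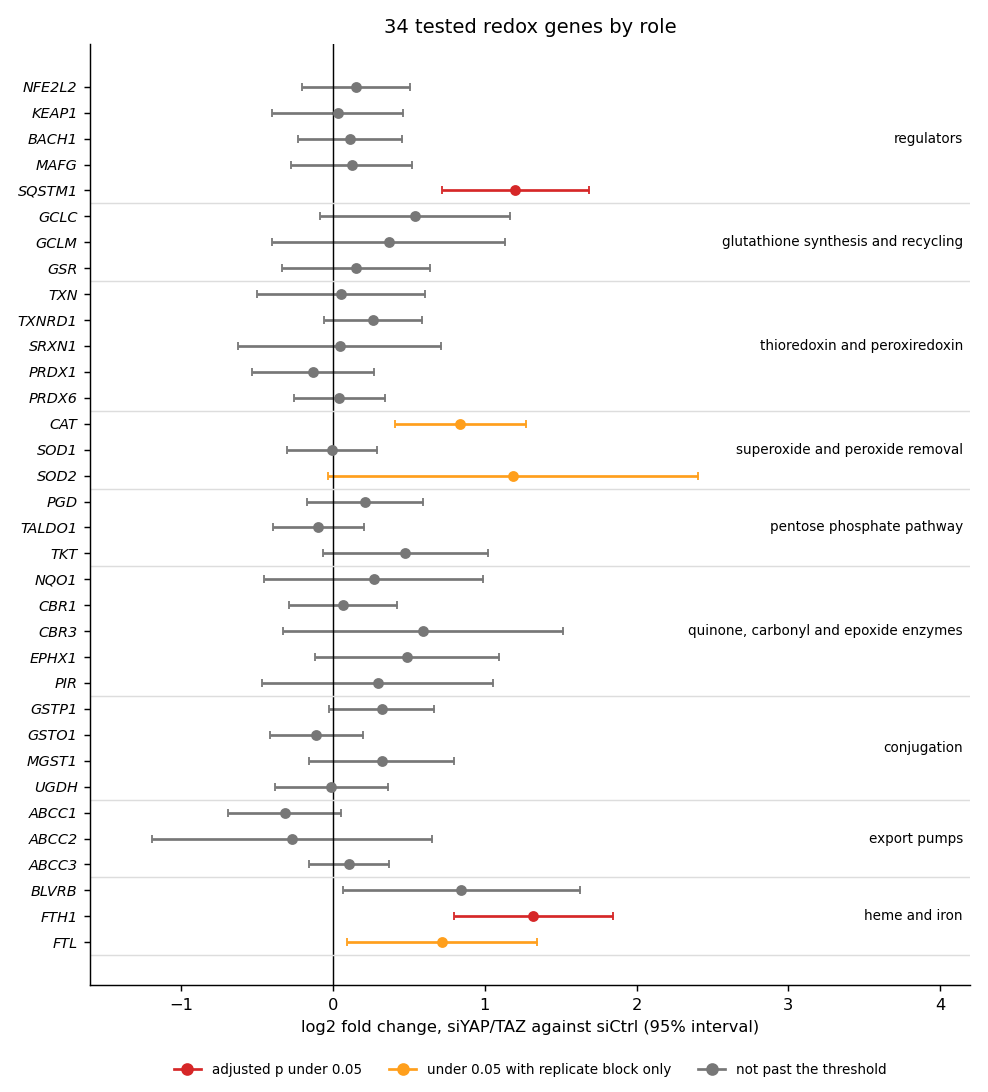
Log2 fold change of siYAP/TAZ against siCtrl (x axis) for the 34 tested genes, grouped by role, with unadjusted 95% intervals. Red points (SQSTM1 and FTH1) passed an edgeR adjusted p of 0.05, orange points (CAT, SOD2 and FTL) passed with the replicate block only, and grey points passed neither, with 27 of all points right of 0.

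FTH1 encodes the heavy chain of ferritin, the shell that oxidises and stores iron (chromosome 11, positions 61727190 to 61735106, minus strand, GRCh37). It was at 2284, 3060 and 1621 CPM in siCtrl replicates 1, 2 and 3 and at 5508, 5983 and 5892 CPM in siYAP/TAZ. All siYAP/TAZ libraries were well above the highest siCtrl library, which was replicate 2. The means were 2322 ± 720.3 and 5794 ± 251.9 CPM (SD, n = 3), a 2.5-fold rise, or 1.32 on the log2 scale (SE 0.23, 95% interval 0.79 to 1.85, edgeR adjusted p = 0.0265). The adjusted p was 0.000734 with the replicate block and 0.00209 without both libraries with disagreeing labels, where the log2 fold change was 1.55. It rose to 0.0904 when control replicate 1 was left out, to 0.115 without control replicate 3, and to 0.0829 and 0.145 without replicates 2 and 3 of the depleted cells. The call without the block therefore rests on each of these 4 libraries, while the log2 fold change in these fits was 1.12 to 1.31. Those fits also called fewer of all genes higher, 6 to 36 against 93 with all libraries. For FTH1, grouping by title gave a log2 fold change of 0.55 with an adjusted p of 0.898.

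FTL encodes the ferritin light chain, which helps to form the mineral core (chromosome 19, positions 49468566 to 49470136, plus strand, GRCh37). It was at 268.5, 247.5 and 134.7 CPM in controls and at 477.8, 272 and 319 CPM after YAP/TAZ depletion. The groups did not overlap, but siYAP/TAZ replicate 2 lay only just above siCtrl replicate 1. The estimate on the log2 scale of 0.72 (SE 0.28) did not pass, with an adjusted p of 0.226, and it passed with the block at 0.0261. Without the libraries with disagreeing labels the adjusted p was 0.0573.

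The heme-handling genes were expressed at low levels. BLVRB, a flavin and biliverdin reductase, was at 7.47, 15.7 and 6.03 CPM across siCtrl, while siYAP/TAZ had 19.0, 14.2 and 18.5 CPM. Replicate 2 of the controls was the only siCtrl library within the siYAP/TAZ range. The log2 fold change was 0.84 (SE 0.35, adjusted p = 0.252, 0.108 with the block), and it was 1.37 with an adjusted p of 0.011 without siCtrl replicate 2. HMOX1, the inducible heme oxygenase that frees iron from heme, was not tested, with 2, 0 and 2 counts in siCtrl and 21, 0 and 5 counts in siYAP/TAZ. Of the 6 libraries, only siYAP/TAZ replicates 1 and 3 held more than the 3 counts that a count of 0 allows.

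SQSTM1 encodes p62, an autophagy receptor that binds KEAP1 and is itself a target of NRF2 (chromosome 5, positions 179233398 to 179265078, plus strand, GRCh37). It was at 192, 236 and 128 CPM in the controls and at 454, 364 and 458 CPM after depletion. The lowest siYAP/TAZ library, replicate 2, was above the highest siCtrl library, also replicate 2. The means were 185.4 ± 54.52 and 425.3 ± 53.45 CPM (SD, n = 3), a 2.3-fold rise, or 1.20 on the log2 scale (SE 0.22, 95% interval 0.72 to 1.68, adjusted p = 0.0288, 0.00288 with the block). Without both libraries with disagreeing labels the log2 fold change was 1.52 (adjusted p = 0.00162), and by title it was 0.75 (adjusted p = 0.898). Leaving out siCtrl replicate 2 gave an adjusted p of 0.00203, and leaving out each of the other 5 libraries in turn gave 0.0606 to 0.152, so that the call without the block rests on each of these. Over the 6 fits its log2 fold change was 0.99 to 1.42. The 5 fits that lost the call also called fewer of all genes higher, 6 to 62 against 93 with all libraries.

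Genes on the opposite strand limit how surely these reads can be assigned, since whether counting used strand is not given in the sources used here. MRNIP, which overlaps SQSTM1, held 72.2% to 80.9% as many counts as SQSTM1 in every library and moved with it (log2 fold change 1.27, adjusted p = 0.0229). MGAT4B, also on the opposite strand of SQSTM1, held 128% to 311% as many counts, a ratio that varied between libraries, with a log2 fold change of 0.61 (adjusted p = 0.081, 0.00873 with the block). BEST1, which overlaps FTH1, held 5.82% to 8.4% as many counts as FTH1 (log2 fold change 1.17, adjusted p = 0.062, 0.00189 with the block). CBR1-AS1 held between 100% and 103% of the counts of CBR1, so that reads of each such pair cannot be told apart in this table. HNRNPA3, on the opposite strand of NFE2L2, held 62.3% to 149% as many counts as NFE2L2 and was lower (log2 fold change -0.64, adjusted p = 0.0729, 0.00603 with the block). WTAP and ACAT2, opposite SOD2, held 3.83% to 16.9% and 4.54% to 43.8% as many counts as SOD2. Their log2 fold changes were 0.41 and -0.43 (adjusted p = 0.0436 and 0.0469 with the block). BACH1, MAFG, PRDX1, CBR3, EPHX1, UGDH and OSGIN1 also overlapped other genes with counts.

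**Figure D2:**
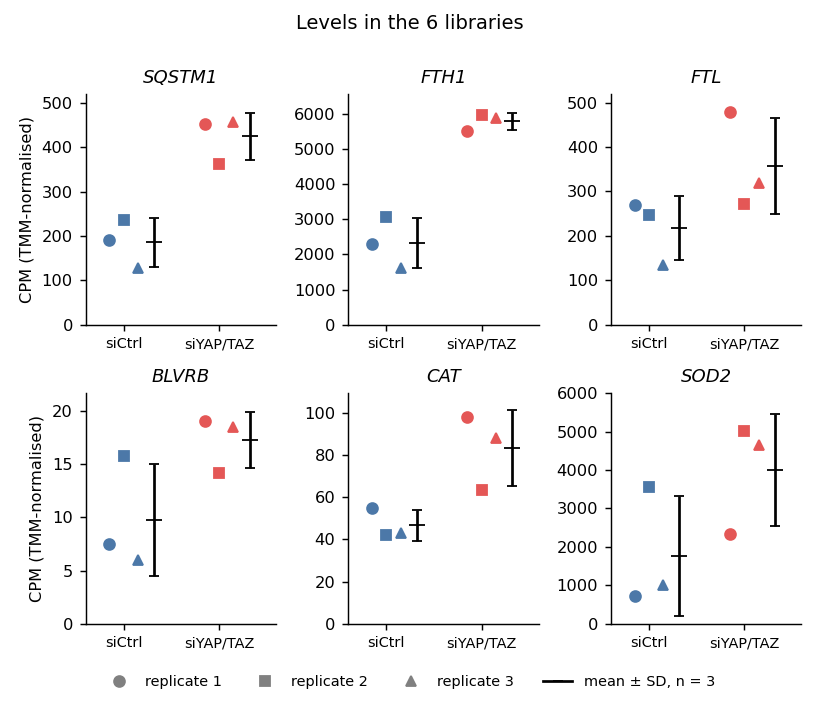
TMM-normalised CPM (y axis, from 0) of SQSTM1, FTH1, FTL, BLVRB, CAT and SOD2 in the 3 siCtrl and 3 siYAP/TAZ libraries, with symbols for the replicate number and bars for the mean ± SD. For SQSTM1, FTH1, FTL and CAT all siYAP/TAZ points lie above all siCtrl points, while for BLVRB and SOD2 siCtrl replicate 2 reaches into the siYAP/TAZ range.

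Among the enzymes that remove superoxide and peroxide, CAT and SOD2 rose with the block and SOD1 did not pass. CAT encodes catalase, the peroxisomal enzyme that breaks down hydrogen peroxide (chromosome 11, positions 34460481 to 34493607, plus strand, GRCh37). It was at 55.1, 42.0 and 43.0 CPM in control replicates 1 to 3 against 98.4, 63.5 and 88.1 CPM in siYAP/TAZ. Every siYAP/TAZ library exceeded every siCtrl library, with replicate 2 the lowest of its group. Its log2 fold change was 0.84 (SE 0.19, 95% interval 0.41 to 1.27), with an edgeR adjusted p of 0.062 and of 0.0041 with the block. DESeq2 gave 0.0115, and without the libraries with disagreeing labels edgeR gave 0.00956.

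SOD2 encodes the manganese superoxide dismutase of mitochondria (chromosome 6, positions 160090101 to 160183561, minus strand, GRCh37). It was at 712, 3552 and 1015 CPM in siCtrl libraries and at 2334, 5026 and 4644 CPM in siYAP/TAZ. The groups overlapped, because siCtrl replicate 2 lay above siYAP/TAZ replicate 1. The estimate on the log2 scale of 1.19 (SE 0.54, 95% interval -0.036 to 2.41) had an adjusted p of 0.295. With the block it was 1.47 with an adjusted p of 0.00518, and without siCtrl replicate 2 it was 2.22 with an adjusted p of 0.00258. SOD1, the copper and zinc enzyme of the cytosol, had a log2 fold change of -0.0052 (95% interval -0.30 to 0.29, adjusted p = 0.99).

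The mRNAs of the NRF2 regulators other than SQSTM1 did not pass either test over all 6 libraries. With the block and without both libraries with disagreeing labels, NFE2L2 passed (edgeR adjusted p = 0.013). That fit was chosen after seeing the data and called 1494 of all 12729 genes higher. It leaves out replicate 2 of each group, between which NFE2L2 was lower after depletion (log2 difference -0.22). NFE2L2 was at 234, 319 and 229 CPM in controls and at 279, 273 and 316 CPM after YAP/TAZ depletion. The highest single library was a control, and the groups overlapped. Its log2 fold change was 0.15 (SE 0.16, 95% interval -0.21 to 0.51, adjusted p = 0.672, 0.499 with the block). KEAP1 was at 31.6, 34.9 and 23.4 CPM against 29.5, 28.4 and 33.5 CPM. The siYAP/TAZ values lay within the siCtrl range, with a log2 fold change of 0.029 (95% interval -0.40 to 0.46, adjusted p = 0.955). BACH1 was at 51.4, 46.6 and 53.5 CPM against 46.7, 56.2 and 60.9 CPM, with a log2 fold change of 0.11 (95% interval -0.23 to 0.45, adjusted p = 0.76). MAFG had a log2 fold change of 0.12 (95% interval -0.28 to 0.52, adjusted p = 0.769). OSGIN1, a stress-induced growth inhibitor, was not tested and held 0 to 4 counts in each library.

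**Figure D3:**
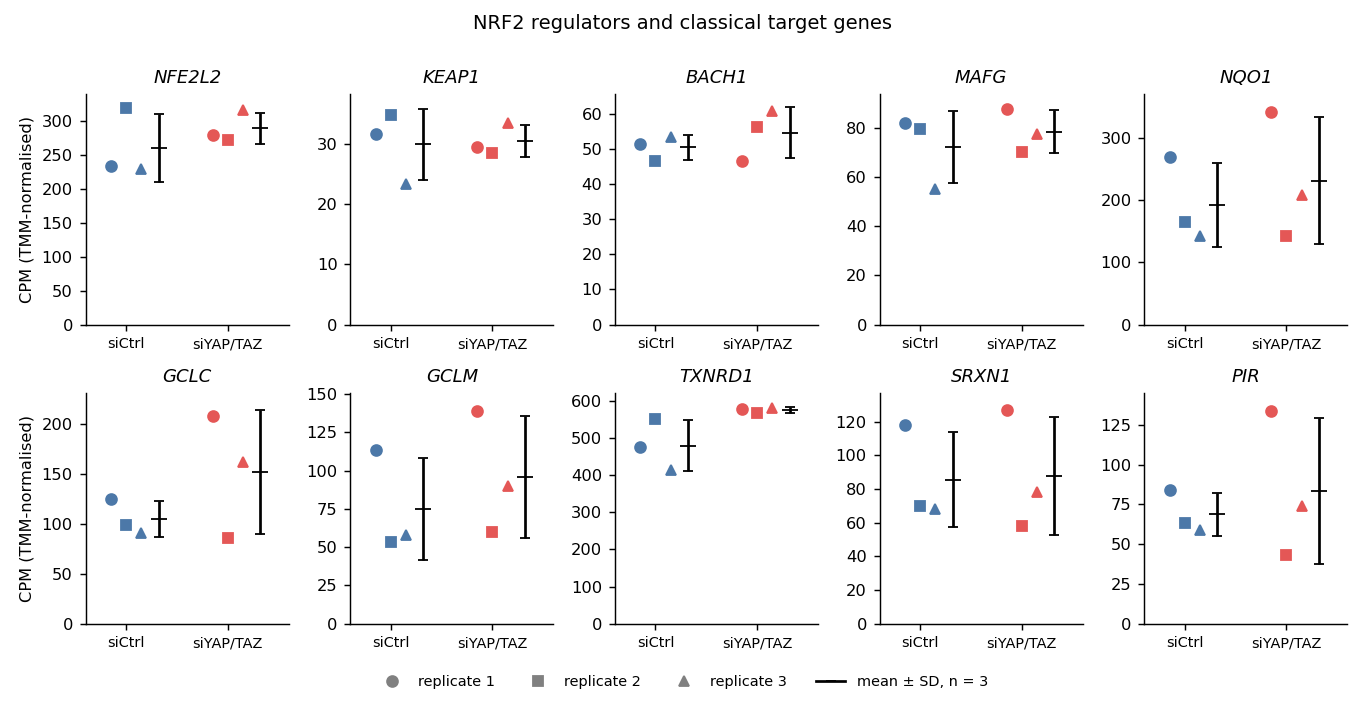
TMM-normalised CPM (y axis, from 0) of 4 regulators (NFE2L2, KEAP1, BACH1, MAFG) and 6 NRF2 target genes (NQO1, GCLC, GCLM, TXNRD1, SRXN1, PIR) per library, with symbols for the replicate number and bars for the mean ± SD. TXNRD1 alone of these 10 has no overlap between groups, and for NQO1, GCLC, GCLM, SRXN1 and PIR replicate 1 is the highest point of both groups.

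The enzymes of glutathione synthesis and recycling had positive estimates that did not pass over all 6 libraries, with or without the block. GCLC, the catalytic subunit of the rate-limiting ligase of glutathione synthesis, was at 125, 98.8 and 91.2 CPM across siCtrl, while siYAP/TAZ had 208, 85.6 and 163 CPM. In siYAP/TAZ replicates 1 and 3 it was above all controls, and in replicate 2 it was below all of them. The log2 fold change was 0.54 (SE 0.28, 95% interval -0.085 to 1.17, adjusted p = 0.349, 0.128 with the block), and it was 0.78 with an adjusted p of 0.0276 without both libraries with disagreeing labels. GCLM, the modifier subunit of the same ligase and the gene with the ARE core at position -34 above, was at 113, 53.4 and 57.8 CPM against 139, 59.8 and 89.8 CPM. It was higher in siYAP/TAZ for every replicate number, by less than the spread within each group, and its log2 estimate was 0.37 (SE 0.34, adjusted p = 0.625, 0.109 with the block). GSR, the reductase that regenerates glutathione, had a log2 fold change of 0.15 (adjusted p = 0.767).

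Of the 5 thioredoxin and peroxiredoxin genes 0 passed over all 6 libraries, and their median was 0.045 on the log2 scale. TXNRD1, the cytosolic thioredoxin reductase, was at 476, 550 and 413 CPM in control replicates 1 to 3 against 579, 566 and 580 CPM in siYAP/TAZ. The groups did not overlap and the siYAP/TAZ libraries were nearly equal, but the log2 fold change of 0.26 (SE 0.15, 95% interval -0.062 to 0.59) did not pass (adjusted p = 0.376, 0.173 with the block). TXN, its substrate thioredoxin, had a log2 fold change of 0.051 (adjusted p = 0.937), and SRXN1, the sulfiredoxin that repairs oxidised peroxiredoxins, one of 0.045 (adjusted p = 0.955). The peroxidases PRDX1 and PRDX6 had log2 fold changes of -0.13 and 0.041 (adjusted p = 0.745 and 0.904).

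Of the pentose phosphate enzymes, which supply NADPH and ribose, 0 of 3 passed over all 6 libraries. PGD, which makes NADPH, had a log2 fold change of 0.21 (adjusted p = 0.569), and TALDO1, a transaldolase, one of -0.097 (adjusted p = 0.753). TKT, the transketolase, ranged from 954.4 to 1896 CPM in siCtrl and from 1881 to 2349 CPM after depletion. Its log2 estimate was 0.47 (SE 0.24, adjusted p = 0.345, 0.0735 with the block). The lowest of these libraries was siCtrl replicate 3, and the groups overlapped by the margin between siCtrl replicate 2 and siYAP/TAZ replicate 2.

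NQO1, the quinone reductase that is commonly used as a reporter of NRF2 activity, was at 269, 166 and 143 CPM in siCtrl libraries and at 343, 142 and 209 CPM in siYAP/TAZ. Its highest library was siYAP/TAZ replicate 1 and its lowest siYAP/TAZ replicate 2, so the siYAP/TAZ group spanned all controls. Its log2 fold change was 0.27 (SE 0.32, 95% interval -0.45 to 0.99, adjusted p = 0.713, 0.361 with the block). With the block and without both libraries with disagreeing labels, a fit chosen after seeing the data, the edgeR adjusted p was 0.00269. That fit leaves out replicate 2 of each group, between which NQO1 was lower after depletion (log2 difference -0.22). CBR3, a carbonyl reductase, was at 3.16, 5.56 and 3.52 CPM against 6.12, 3.31 and 8.70 CPM, and its log2 estimate was 0.59 (SE 0.41, adjusted p = 0.493). Its siYAP/TAZ replicate 2 lay in the lower control range. CBR1, the related reductase, had a log2 fold change of 0.065 (adjusted p = 0.869), and PIR, an iron-binding nuclear protein, one of 0.29 (adjusted p = 0.701).

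EPHX1, the microsomal epoxide hydrolase, was at 23.8, 50.6 and 26.1 CPM in controls and at 43.7, 52.6 and 44.1 CPM after YAP/TAZ depletion. Its control replicate 2 stood at the siYAP/TAZ level. The estimate on the log2 scale was 0.48 (SE 0.27, adjusted p = 0.383, 0.0874 with the block), and it was 0.90 with an adjusted p of 0.00854 without siCtrl replicate 2.

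Conjugating enzymes and export pumps did not pass in either direction over all 6 libraries, with or without the block. GSTP1, the main cytosolic glutathione transferase of many epithelia and the gene whose ARE and AP-1 matches overlap, ranged from 713 to 911 CPM in siCtrl and from 894 to 1034 CPM in siYAP/TAZ. The groups overlapped narrowly, and the log2 fold change was 0.32 (95% interval -0.025 to 0.67, adjusted p = 0.315, 0.0932 with the block). The membrane-bound transferase MGST1 had a log2 fold change of 0.32, the transferase GSTO1 one of -0.11 and UGDH, which makes UDP-glucuronate, one of -0.012 (adjusted p = 0.473, 0.721 and 0.979). GSTM3 had 0 counts in all libraries. ABCC1, an exporter of glutathione conjugates, was at 49.97, 43.82 and 43.98 CPM in the controls and at 43.52, 33.39 and 33.18 CPM in the depleted cells. It was the only tested member below all controls in every siYAP/TAZ library, replicate 1 only just, and its log2 fold change of -0.32 did not pass (adjusted p = 0.353). ABCC2 and ABCC3, related exporters, had log2 fold changes of -0.27 and 0.10 (adjusted p = 0.781 and 0.699).

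Comparison within replicate numbers gave smaller differences, by their median, in pair 2, the pair made of both libraries with disagreeing labels. The number of tested members that were higher in siYAP/TAZ was 26 of 34 in pair 1, 15 of 34 in pair 2 and 26 of 34 in pair 3. Of all 12510 genes, 6291, 6301 and 6263 were higher. The median log2 differences of the members were 0.29, -0.025 and 0.39, where the medians over all genes were 0.0032, 0.0043 and 0.00087. FTH1 differed by 1.27, 0.97 and 1.86 on the log2 scale, and SQSTM1 by 1.24, 0.62 and 1.84. SOD2 differed by 1.71, 0.50 and 2.19, while NQO1, at 0.35, -0.22 and 0.54, and GCLC, at 0.73, -0.20 and 0.83, went the other way in pair 2. In all, 10 members were higher in every pair (29.4%) and 4 were lower in every pair (11.8%), where 23.3% and 22.8% of all genes were.

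**Figure D4:**
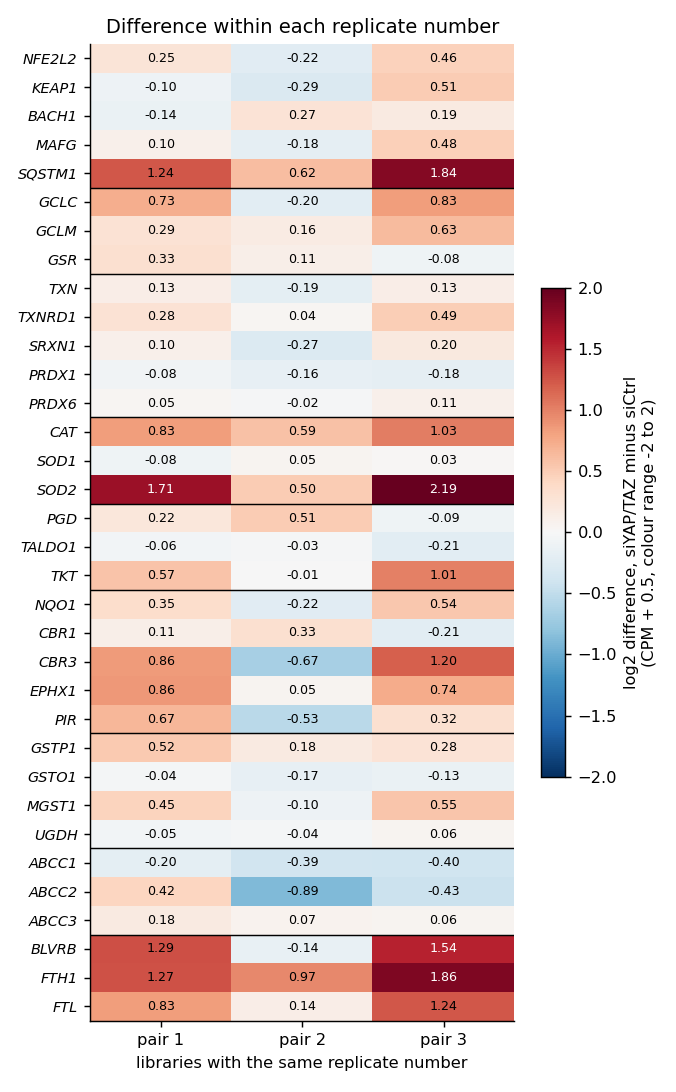
Log2 difference of siYAP/TAZ minus siCtrl (CPM plus 0.5) between libraries of the same replicate number, for each of the 34 tested genes by role (lines separate roles). Red is higher in siYAP/TAZ, blue lower, and colours saturate at 2 and -2. Pair 2 is more mixed in sign than pairs 1 and 3. Its members at or above 0.50 are SQSTM1, CAT, SOD2, FTH1 and PGD, and its lowest are ABCC2 (-0.89), CBR3 (-0.67) and PIR (-0.53).

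The summed level of the 37 members was 10570, 14150 and 8369 CPM across siCtrl, while siYAP/TAZ had 17800, 18590 and 18710 CPM. Every siYAP/TAZ library was above every control. Without FTH1 and SOD2 the sums were 7571, 7540 and 5733 CPM against 9955, 7582 and 8177 CPM, where siYAP/TAZ replicate 2 was level with siCtrl replicates 1 and 2.

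Other genes of the same pathways were tabulated for comparison. Of 55 listed, 51 were tested, of which 2 rose and 0 fell, where 0.743% of all genes were higher. With the block, 4 rose and 0 fell, where 4.66% of all genes were higher. Their median log2 fold change was 0.17, and it was 0.097 to 0.16 with each library left out in turn, where that of the members was 0.080 to 0.26. NFE2L1, a relative of NRF2 that controls proteasome genes, was at 40.78, 49.99 and 41.46 CPM in control replicates 1 to 3 against 77.5, 64.1 and 90.3 CPM in siYAP/TAZ, a rise of 0.81 on the log2 scale (SE 0.17, adjusted p = 0.0455, 0.0107 with the block). GSTA4, the transferase for the lipid peroxidation product 4-hydroxynonenal, was at 6.32, 19.8 and 10.3 CPM against 39.0, 31.7 and 37.3 CPM, a rise of 1.58 (SE 0.34, adjusted p = 0.0493, 0.0075 with the block). The groups did not overlap for either gene. Both calls were lost when siCtrl replicate 1, siCtrl replicate 3 or any 1 siYAP/TAZ library was left out. With the block only, ABCC5, an exporter, rose by 0.64 (adjusted p = 0.0228) and TFRC, the transferrin receptor that brings iron into the cell, by 0.43 (adjusted p = 0.0445) on the log2 scale. In the blocked fit, TFRC and both ferritin subunits thus passed, but without the block only FTH1 of these did. The edgeR adjusted p without the block was 0.196 for TFRC and 0.226 for FTL. Among other listed iron and heme genes, NCOA4, FECH and SLC48A1 did not pass with the block (edgeR adjusted p = 0.0994, 0.544 and 0.141).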

How the data were processed

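3′ mRNA-Seq libraries of MCF10A cells were analysed, 3 per group. The authors deposited raw counts per Entrez gene in 1 table. Per the submitters' processing notes, Cutadapt 4.2, Bowtie2 2.3.5.1 and hg19 were used, and the study's methods give, for RNA-Seq in general, countOverlaps in R, which counts a read once for each gene it overlaps. Gene annotation and use of strand are not given in the sources used here. The study's methods call RNA-Seq replicates biological, and the labels of these libraries do not say which cultures they came from. No 2 libraries were identical or within sampling noise.

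Symbols were matched through RefSeq GRCh38.p14 for 23308 of 23459 IDs (99.66% of counts, 0 unnamed rows). Coordinates are from GENCODE lifted to GRCh37. Counts were tested with edgeR 4.0.16 (R 4.3.3) by the quasi-likelihood F test, with the default low-count filter (12510 genes with 99.5% of counts), TMM scaling and a model with the group alone, and p-values were adjusted over all genes tested by the Benjamini-Hochberg method, with a threshold of 0.05. The script was tested on simulated data. Fold changes are siYAP/TAZ over siCtrl, SEs come from the fold change and its F statistic, and the alternatives (DESeq2 1.42.0, scaling, filters, dispersion, block, libraries left out, grouping by title) are given in the closing section. Pairing was checked by centring log2 CPM within each group. Across genes, same-numbered libraries then correlated at r = 0.416, 0.345 and 0.129 for numbers 1, 2 and 3 of the description. Libraries of different number correlated at -0.365 to 0.0454, and centring within a group ties all these values to each other. The numbers were treated as pairs on this ground, which is weakest for number 3, and values with the replicate block are given. The labels do not say that equal numbers are pairs, and calls made only with the block rest on that. Library totals of 3175149 to 4317286 counts limit precision for genes at a few counts.

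The 37 members and the other lists were chosen with earlier results of these data known. All 37 members are named. Values in each library are given for those past the threshold with or without the block, for those with a log2 fold change of at least 0.5 in size, for NFE2L2, KEAP1, BACH1, NQO1, HMOX1, GCLM and TXNRD1, and for a few others chosen after their values were seen.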

Additional observations from a re-analysis of the deposited data

How the results depend on the processing

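Under 15 other settings and 1 chosen after seeing the data, 0 members were called lower. No fold change called over all 6 libraries, with or without the block, reversed. Over all genes, 152 were lower and 93 higher. DESeq2 gave 333 and 254, no low-count filter 299 and 257, the replicate block 680 and 583, grouping by title 0 and 0 (242 and 222 at an unadjusted p under 0.05, of which members made up 0 and 3), and leaving out both libraries with disagreeing labels 591 and 592. The replicate block over pairs 1 and 3 only (4 libraries, chosen after seeing the data) gave 1566 and 1494, and leaving out 1 library 10 to 798 and 6 to 781. Members called higher were 2 of 34, with 3 of 36 for DESeq2 and 3 of 36 without the low-count filter, CAT added in both. There were 5 under the replicate block, 0 by title, and 0 to 6 with 1 library left out. Without both libraries 7 of 34 were higher, beside 592 of all 12729 genes. Under the block over pairs 1 and 3 it was 17 of 34, beside 1494 of all 12729. NFE2L2, GCLM, TXNRD1, TKT, NQO1, CBR3, PIR, GSTP1 and MGST1 passed only under that block over pairs 1 and 3. Of the other redox genes, 2 were higher, with 1 for library size alone, 1 for a mean of at least 50 counts, 4 under the replicate block, 0 by title, 5 without both libraries, 12 (and 3 lower) under the block over pairs 1 and 3, and 0 to 6 with 1 library left out. The replicate block changed no call of a member other than CAT, SOD2 and FTL. The cause of these differences was not tested.

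Signs changed only for members that were not called over all 6 libraries, with or without the block. NQO1 and PIR, called under the block over pairs 1 and 3, were among those that changed sign. With a mean of at least 50 counts the log2 fold change was 0.010 for SOD1 and 0.0030 for UGDH. By title it was -0.063 for BACH1, -0.11 for PGD, -0.13 for CBR1, 0.014 for UGDH and 0.47 for ABCC2. Without both libraries it was -0.046 for CBR1, 0.0076 for UGDH and 0.18 for ABCC2, and under the block over pairs 1 and 3 it was -0.047, 0.0057 and 0.080. Leaving out each library in turn gave ranges of -0.056 to 0.090 for SOD1, -0.12 to 0.11 for UGDH, -0.22 to 0.26 for TXN, -0.32 to 0.35 for SRXN1, -0.044 to 0.16 for CBR1, -0.70 to 0.17 for ABCC2, -0.13 to 0.16 for KEAP1, -0.041 to 0.22 for MAFG, -0.038 to 0.099 for PRDX6, -0.048 to 0.36 for GSR, -0.13 to 0.59 for NQO1 and -0.22 to 0.60 for PIR. The low-count filter left HMOX1 and OSGIN1 untested, and without it 36 members were tested, both of these included.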

Other observations

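TXNIP, the inhibitor of thioredoxin, was singled out after its values were seen. It was at 83, 1313 and 221 CPM in siCtrl replicates 1, 2 and 3 and at 453, 694.5 and 546 CPM in siYAP/TAZ. The control libraries held both its lowest and its highest value, with siCtrl replicate 2 above all siYAP/TAZ libraries, and the log2 fold change was 0.068 (SE 0.75, edgeR adjusted p = 0.974, 0.249 with the replicate block).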
